A study of Mus musculus with 6 samples.

Results

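The genes described here encode the machinery that copies DNA in S phase, and they were given as a list of 55 names. All 55 were measured, each by a probe set that the table of the array platform pairs with that symbol alone, among 19937 genes measured in that way. Where a gene had several such probe sets (Pcna, Rpa3, Tk1 and Slbp had 2 each), the brightest stood for it. Expression was measured on 6 arrays of total RNA from mouse pro-B cells transformed by v-Abl, a viral oncogene that keeps cells of this early B cell stage dividing in culture. Of these, 3 samples had been given 1 µM tamoxifen for 2 days and 3 were left untreated. All 6 had the genotype Foxo1f/f; ERCre on the strain labelled C57/BL6: Foxo1, a forkhead transcription factor, carried floxed alleles, and the Cre recombinase acted once tamoxifen was added. No group had intact Foxo1 together with tamoxifen, so deletion and drug cannot be told apart. The labels name no separate cultures or clones behind the samples of a group, so every p-value here rests on sample-to-sample spread that may be technical.

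DNA replication begins when the origin recognition complex marks origins in G1 and, with CDC6 and CDT1, loads the MCM2-7 ring around DNA. Kinases then switch the ring on by adding CDC45 and the GINS complex, which gives the active helicase, and polymerases alpha, delta and epsilon copy the opened strands with the help of the PCNA clamp. Cyclin E and the activating E2F factors turn on many of these genes at the entry into S phase, so in dividing cultures their transcripts follow the share of cells in that part of the cycle. In an array of a whole culture, fewer cells in S phase and less transcript per cell cannot be told apart.

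The promoters of 4 genes are shown. Pole2, Pola1 and Orc1 had the largest absolute fold changes among members with an entry in the promoter table, and Pcna is the clamp. Whether these sequences bear on the values below was not tested. Each is the RefSeq window of build GRCm38.p6, written 5′ to 3′ on the gene's own strand, with 250 bases before the annotated start and 50 from it onward. Capitals mark matches on either strand to an E2F element (TTTCCCGC, TTTCGCGC, TTTGCCGC or TTTGGCGC) or to the CCAAT box (CCAAT). The windows are chr12:69228141-69228440 (minus strand) for Pole2, chrX:93632106-93632405 (minus strand) for Pola1, chr4:108579204-108579503 (plus strand) for Orc1 and chr2:132253131-132253430 (minus strand) for Pcna.
Pole2 promoter: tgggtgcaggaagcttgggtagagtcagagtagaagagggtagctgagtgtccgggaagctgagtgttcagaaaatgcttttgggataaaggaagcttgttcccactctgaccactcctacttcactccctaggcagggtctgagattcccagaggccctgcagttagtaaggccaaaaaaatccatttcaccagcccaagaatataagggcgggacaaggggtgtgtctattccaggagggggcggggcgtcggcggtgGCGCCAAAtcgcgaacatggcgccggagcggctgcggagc
Pola1 promoter: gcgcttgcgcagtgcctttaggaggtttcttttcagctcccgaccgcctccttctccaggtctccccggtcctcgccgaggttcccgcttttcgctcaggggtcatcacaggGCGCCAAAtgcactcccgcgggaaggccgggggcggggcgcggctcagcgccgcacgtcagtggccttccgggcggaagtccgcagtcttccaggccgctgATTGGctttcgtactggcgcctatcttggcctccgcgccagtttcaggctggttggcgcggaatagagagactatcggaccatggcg
Orc1 promoter: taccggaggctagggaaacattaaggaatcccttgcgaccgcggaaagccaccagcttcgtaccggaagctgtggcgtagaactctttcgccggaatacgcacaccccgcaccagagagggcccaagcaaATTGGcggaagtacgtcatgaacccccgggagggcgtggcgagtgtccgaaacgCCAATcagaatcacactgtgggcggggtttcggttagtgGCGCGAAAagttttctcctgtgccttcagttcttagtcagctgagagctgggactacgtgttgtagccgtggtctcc
Pcna promoter: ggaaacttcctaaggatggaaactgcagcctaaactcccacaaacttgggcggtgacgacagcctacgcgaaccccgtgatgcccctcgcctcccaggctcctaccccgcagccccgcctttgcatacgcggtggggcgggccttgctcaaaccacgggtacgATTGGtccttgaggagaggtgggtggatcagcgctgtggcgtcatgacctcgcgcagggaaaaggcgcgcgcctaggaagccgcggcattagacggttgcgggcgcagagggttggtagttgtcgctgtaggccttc
The Pole2 window held 1 E2F match, at position 10 counted from the start as 0, and no CCAAT box. In Pola1 the E2F match lay at -138 and a CCAAT box at -37, and in Orc1 an E2F match lay at -27 with CCAAT boxes at -120 and -66. The Pcna window had 1 CCAAT box, at -87, and 0 matches to these E2F letters. No 2 of these matches overlapped.

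Of the 55 members, 47 had a window in the table, and 17 of them (36.2%) held an E2F match, against 704 of 27025 genes (2.6%). The CCAAT box was found in 27 of the 47 (57.4%), against 41.1% of all genes. A forkhead element (GTAAACA, either strand) was present in the windows of Mcm7 and Cdc45, 2 of 47 (4.26%), against 4.05% of all genes. The cell cycle homology region (TTTGAA or TTCGAA) was found in 9 of 47 (19.1%), against 21.7%. A gene with several windows counted once if any window held the letters. A match is a description of these letters and not of binding.

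Before the members, the labels and the arrays were checked. Foxo1 measured 115.5, 151.1 and 134.4 in tamoxifen samples 1, 2 and 3, against 806.2, 624.3 and 511.6 in untreated samples 1, 2 and 3. It fell to 134 ± 17.8 in tamoxifen cells, against 647 ± 149 in untreated cells (intensity, SD, n = 3 each). On the log2 scale this was -2.13 ± 0.15 (SE), with an adjusted p = 0.0178 from limma. With 1 array left out the fold change lay between -2.26 and -1.97, and the call was lost in 5 of these 6 fits (adjusted p from limma between 0.0276 and 0.156, past the threshold only without untreated 1). It was also lost, at an adjusted p of 0.05 from limma, with arrays scaled to a common median. The sources used here do not say whether its probe set lies in the deleted part. Of 7 measured B lineage markers (Cd79a, Cd79b, Vpreb1, Igll1, Pax5, Ebf1 and Cd24a), all 7 averaged above the upper quartile of every array, whereas 0 of 6 T cell and 0 of 6 myeloid markers and 0 of 1 erythroid marker did. Their summed intensity ran from 17930 to 19550 in tamoxifen cells and from 15550 to 17010 in untreated cells. T cell markers summed to between 365 and 431 in tamoxifen cells and between 365 and 459 in untreated cells, and myeloid markers to between 417 and 438 against 414 to 472. Klf1, the erythroid marker, measured between 47.7 and 50.5 in tamoxifen cells and between 50.5 and 63.6 in untreated cells, and no marker was at 0 (the dimmest averaged 28.6). The B lineage sums did not overlap between the groups, and 6 of the 7 markers were higher in tamoxifen cells, with only Ebf1 lower. At an unadjusted p under 0.05 limma found 5 of them higher and 1 lower, where 5.11% of all probe sets were found. Cd79b averaged higher in tamoxifen cells (0.52 ± 0.07, log2, SE) and Ebf1 lower (-0.51 ± 0.07), and neither was called (adjusted p from limma 0.134 and 0.169). The part of these markers in the members' values was not tested. Array medians lay between 100.9 and 109.1. Of the 55 members, 46 were above the upper quartile on every array and 0 were below the median on any, so the list was well above the dim end of the arrays.

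No member passed the test, but nearly all of them were slightly lower in tamoxifen cells. Every fold change here is tamoxifen minus untreated on the log2(intensity + 16) scale after quantile normalization, tested with limma over all 34760 probe sets at an adjusted p of 0.05. Of the 55 genes, 0 were called, with adjusted p between 0.733 and 0.999, where 0.0575% of all probe sets were called. A fold change below 0 was found for 51 of 55 (92.7%), against 55.5% of all 19937 genes. The median was -0.13, against -0.01 over all genes, and the members ran from -0.35 (Gins2) to 0.22 (Pcna). Among genes at least as bright as the lower quartile of the members, 51.4% were below 0 with a median of -0.0037.

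Single genes stood out little from their spread. At an unadjusted p under 0.05 limma found 6 of 55 members, all lower (Orc1, Prim2, Pole, Pole2, Lig1 and Rrm2), where 5.11% of all probe sets were found. Over all 19937 genes 436 were lower and 590 higher at that p. Among the 3891 genes at least as bright as the members' lower quartile, 140 were lower and 236 higher. The count of members went to 0 without tamoxifen 2, without tamoxifen 3, with arrays scaled to a common median or with no further normalization. It went to 11 without tamoxifen 1. Every tamoxifen intensity lay below every untreated one for 3 members (Cdc7, Pole and Pole2), 5.45%, where 4.26% of all probe sets did so. The opposite, all tamoxifen values above all untreated ones, held for 0 members and for 4.25% of all probe sets. Among the 3891 brighter genes 3.26% had every tamoxifen value below and 7.12% had every one above. Overlap of single genes was counted on these deposited intensities, not on the quantile-normalised values behind the fold changes. On the normalised values Mcm4, Mcm6, Pole, Pole2, Lig1, Rrm2 and Slbp did not overlap between the groups, whereas Cdc7 did. The groups nearly met for Mcm4 (0.0091 on tamoxifen 1, 0.0096 on untreated 2) and for Slbp (-0.0083 on tamoxifen 1, 0.0066 on untreated 3). The share of all probe sets without overlap was not counted on that scale, so these names are not read as a result about the members. The standard errors of the members had a median of 0.10. All 55 unadjusted 95% intervals lay inside a 2-fold change in either direction and 49 inside 1.5-fold, with the outermost bounds at -0.77 (Gins2) and 0.52 (Pcna). Changes of 2-fold or more therefore lay outside each gene's own interval. These unadjusted intervals included 0 for 49 of 55. After adjustment no member's difference could be told from 0 (adjusted p from limma 0.733 or more).

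**Figure D1:**
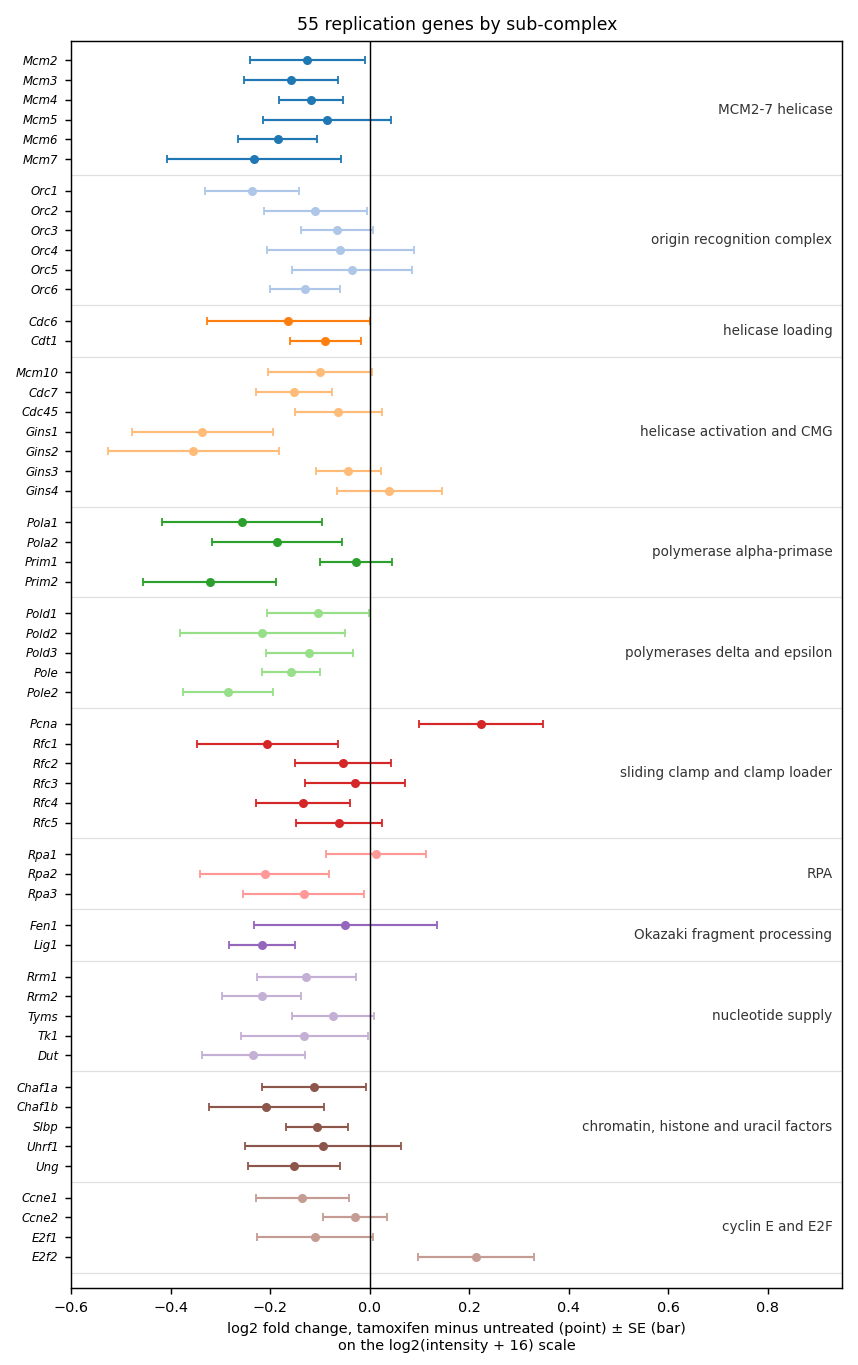
Log2 fold change (tamoxifen minus untreated, horizontal axis) of each of the 55 genes, in 12 sub-complexes from top to bottom, with bars for the SE from limma. A total of 51 points lie left of 0, and Pcna and E2f2, at 0.22 and 0.21, lie farthest to the right.

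The arrays of a group differed from each other about as much as the groups did. Averaged over the 55 members, the deviation from each gene's own mean over the 6 arrays was 0.02, -0.10 and -0.11 on tamoxifen arrays 1, 2 and 3, against 0.16, 0.04 and -0.01 on untreated arrays 1, 2 and 3 (log2). Tamoxifen 1 thus stood above untreated 3, and the groups overlapped. The group averages were -0.06 ± 0.07 in tamoxifen cells and 0.06 ± 0.08 in untreated cells (SD over 3 arrays each). The same average over all 19937 genes lay between -0.02 and 0.03 on every array.

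Array 1 of each group tended to hold the highest values. Among tamoxifen arrays 41 of 55 members were highest on tamoxifen 1 (74.5%, against 37.2% of all genes), and among untreated arrays 39 were highest on untreated 1 (70.9%, against 46.1%). Across all 6 arrays, as deposited, untreated 1 gave the highest intensity for 31 members, untreated 2 for 12, tamoxifen 1 for 11 and tamoxifen 3 for 1. The lowest intensity was on tamoxifen 3 for 21 members, tamoxifen 2 and untreated 3 for 14 each, tamoxifen 1 for 4 and untreated 1 for 2. Without untreated 1, 43 of 55 members were below 0 with a median of -0.08, where 48.1% of all genes were below 0. Without tamoxifen 1 the values were 52 of 55 and -0.17.

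**Figure D2:**
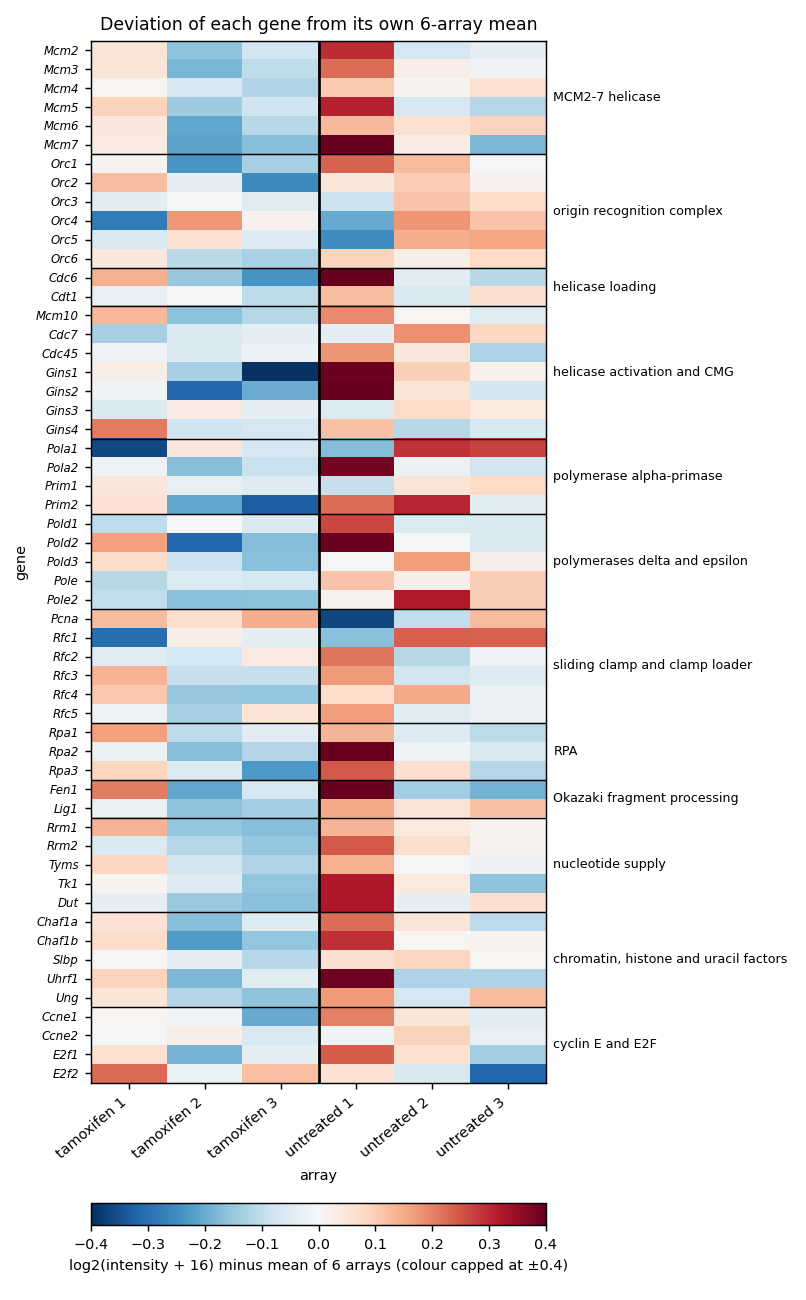
Deviation of each of the 55 genes (rows, by sub-complex) from its own mean over the 6 arrays (columns, tamoxifen arrays left of the thick line), on the log2 scale. Tamoxifen 2 and 3 are mostly blue (46 and 50 of 55 genes below their own mean) and untreated 1 mostly red (11 of 55 below), while tamoxifen 1 is mixed (22 below).

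**Figure D3:**
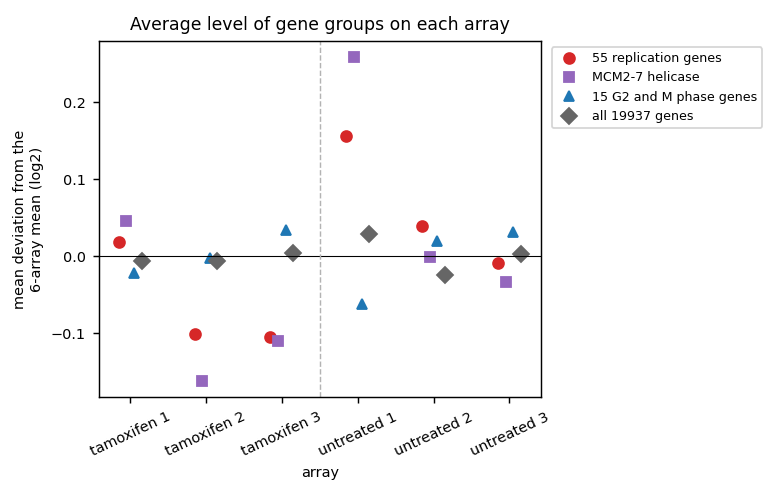
Mean deviation from the 6-array mean (log2, vertical axis) on each array for the 55 replication genes, the MCM2-7 helicase, 15 G2 and M phase genes and all genes. The replication genes range from -0.11 on tamoxifen 3 to 0.16 on untreated 1, and tamoxifen 1 (0.02) lies above untreated 3 (-0.01).

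The origin recognition complex, which binds origins and starts licensing, was measured with all 6 subunits, and all 6 were below 0 with a median of -0.09. Orc1, the subunit whose abundance rises and falls with the cell cycle in mammalian cells, had intensities of 384, 299 and 322 in tamoxifen samples 1, 2 and 3, against 432, 405 and 336 in untreated samples 1, 2 and 3. The groups overlapped, since tamoxifen 1 exceeded untreated 3. Its log2 fold change was -0.24 ± 0.09 (SE), with a limma adjusted p = 0.949. The remaining subunits measured -0.11 ± 0.10 (Orc2), -0.07 ± 0.07 (Orc3), -0.06 ± 0.15 (Orc4), -0.04 ± 0.12 (Orc5) and -0.13 ± 0.07 (Orc6). Orc4 and Orc5 did not share the array order of Orc1: Orc5 was lowest on untreated 1 (297) and highest on untreated 2 (407), and Orc4 was lowest on tamoxifen 1 (264) and highest on untreated 2 (366). The median of the complex was -0.15 without untreated 1 and -0.06 without untreated 2.

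CDC6 and CDT1 load the helicase, and both transcripts were below 0 with groups that overlapped. Cdc6 measured 453, 336 and 317 in tamoxifen samples 1, 2 and 3, against 520, 380 and 331 in untreated samples. Sample 1 was the highest in both groups and the ranges overlapped, with a log2 fold change of -0.16 ± 0.16 (SE). Cdt1 had -0.09 ± 0.07 (SE), from 186 ± 7.16 in tamoxifen cells and 197 ± 12.1 in untreated cells (SD, n = 3 each). The median of the pair, -0.13, became -0.03 without untreated 1, -0.07 without tamoxifen 3 and -0.18 without tamoxifen 1.

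All 6 subunits of the MCM2-7 ring, the core of the replicative helicase, were below 0, with a median of -0.14 and a narrow range from -0.23 to -0.09. Mcm7 had the lowest of these values, -0.23 ± 0.17 (SE), from intensities of 716, 545 and 567 in tamoxifen samples 1, 2 and 3, against 951, 687 and 536 in untreated samples 1, 2 and 3. Untreated 3 was below all 3 tamoxifen samples in deposited intensity. After quantile normalization the deviations of Mcm7 from its own mean were 0.03, -0.21 and -0.17 on tamoxifen arrays 1, 2 and 3. On untreated arrays 1, 2 and 3 they were 0.49, 0.03 and -0.18, so untreated 1 stood far above the rest. The fold change of Mcm7 lay between -0.38 and -0.04 over the 16 alternatives. Mcm6 was the brightest of the 6 probe sets, with 2371, 1833 and 1951 in tamoxifen samples, against 2460, 2311 and 2220 in untreated samples. Its groups overlapped only through tamoxifen 1 in deposited intensity, and not after quantile normalization (0.04 on tamoxifen 1, 0.06 on untreated 2). The fold change of Mcm6 was -0.18 ± 0.08 (SE) with a limma adjusted p = 0.988.

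In the other MCM subunits, too, sample 1 was the highest of each group and the groups overlapped in deposited intensity. Mcm2 measured 868, 685 and 720 in tamoxifen samples 1, 2 and 3, against 985, 774 and 712 in untreated samples (-0.13 ± 0.12). Mcm3 measured 1157, 895 and 943 in tamoxifen samples, against 1266, 1095 and 972 in untreated samples (-0.16 ± 0.09). Tamoxifen 1 lay inside the untreated range for both genes. Mcm4 measured 1046, 905 and 867 in tamoxifen samples, against 1071, 1010 and 956 in untreated samples (-0.12 ± 0.06). Mcm5 measured 757, 585 and 612 in tamoxifen samples, against 843, 653 and 572 in untreated samples (-0.09 ± 0.13). Mcm5 was the subunit whose sign turned when an array was left out (0.05 without untreated 1). On average over the ring, tamoxifen arrays stood at -0.08 ± 0.11 and untreated arrays at 0.08 ± 0.16 (log2, SD, n = 3 each), and the median fold change was -0.06 without untreated 1 and -0.20 without tamoxifen 1.

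Factors that turn the loaded ring into a moving helicase held the lowest values of the list. GINS is a 4-subunit complex that joins CDC45 and MCM2-7, and whether its subunits differed from each other was not tested. Gins2 measured 761, 563 and 611 in tamoxifen samples 1, 2 and 3, against 1087, 777 and 636 in untreated samples 1, 2 and 3, a log2 fold change of -0.35 ± 0.17 (SE) and an adjusted p from limma of 0.999. The groups overlapped, and untreated 1 was far above the rest. Gins1 averaged 497 ± 95.4 in tamoxifen cells and 625 ± 112 in untreated cells (SD, n = 3 each), with -0.34 ± 0.14 (SE). Gins3 measured -0.04 ± 0.07 and Gins4 0.04 ± 0.11, and the unadjusted 95% intervals of all 4 included 0.

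Cdc7, the kinase that phosphorylates the MCM ring, was steady in tamoxifen cells as deposited (intensity 293 ± 2.96, against 324 ± 33.6 in untreated cells, SD, n = 3 each). It was 1 of the 3 members without overlap in deposited intensity, and its fold change was -0.15 ± 0.08 (SE). After quantile normalization it deviated from its own mean by -0.13, -0.06 and -0.04 on tamoxifen arrays 1, 2 and 3. On that scale tamoxifen 3 (-0.0351) lay just above untreated 1 (-0.0367), so the groups overlapped. Cdc45 measured -0.06 ± 0.09 and Mcm10, which supports helicase activation, -0.10 ± 0.10. For these 7 genes together the median was -0.10, and it ran from -0.15 (without untreated 3) to -0.07 (without tamoxifen 3) with 1 array left out.

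The polymerases had the lowest sub-complex medians with all 6 arrays, but this order depended on single arrays. Without tamoxifen 1 or without untreated 3 nucleotide supply was lowest (-0.23 and -0.25). Without tamoxifen 1 both polymerase groups also lay above RPA and Okazaki fragment processing (-0.2084 each) and the MCM ring (-0.2021). Alpha-primase was at -0.1804, above helicase loading too (-0.1834), and polymerases delta and epsilon at -0.1871. Without untreated 3 polymerases delta and epsilon (-0.1606) lay above RPA (-0.2225), Okazaki fragment processing (-0.1837) and the MCM ring (-0.181). In that fit they also lay above chromatin factors (-0.1789) and helicase loading (-0.1709). Polymerases delta and epsilon also lay above nucleotide supply and RPA without tamoxifen 2 (-0.133, against -0.1399 and -0.1385). They lay above the origin recognition complex without untreated 1 (-0.1437, against -0.1475). Without untreated 2 they lay above the MCM ring and Okazaki fragment processing (-0.1852, against -0.1873 and -0.1864). With array weights they again lay above nucleotide supply (-0.1564, against -0.1723). Polymerase alpha-primase, which lays down RNA-DNA primers, had 4 of 4 members below 0 and a median of -0.22. Prim2, the large primase subunit, measured 579, 440 and 402 in tamoxifen samples 1, 2 and 3, against 619, 666 and 471 in untreated samples 1, 2 and 3. The overlap came from tamoxifen 1 alone, and the fold change was -0.32 ± 0.13 (SE) with a limma adjusted p = 0.978. Pola1, the catalytic subunit, had -0.26 ± 0.16, Pola2 -0.19 ± 0.13 and Prim1, the small catalytic primase subunit, -0.03 ± 0.07. Pola1 was highest on untreated 2 (1254) and lowest on tamoxifen 1 (830), unlike Pola2, which was highest on untreated 1 (561). With 1 array left out the median of the 4 ran from -0.23 (without untreated 3) to -0.18 (without tamoxifen 1).

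Polymerases delta and epsilon, the lagging and leading strand enzymes, had 5 of 5 members below 0 with a median of -0.16. Pole2, an accessory subunit of polymerase epsilon, measured 651, 566 and 568 in tamoxifen samples 1, 2 and 3, against 675, 842 and 651 in untreated samples 1, 2 and 3. The groups did not overlap, but tamoxifen 1 and untreated 3 nearly met, and the fold change was -0.29 ± 0.09 (SE) with a limma adjusted p = 0.763. Pole, the catalytic subunit, measured 799, 761 and 745 in tamoxifen samples, against 893, 851 and 811 in untreated samples. It had the smallest SE of the list, 0.06, around a fold change of -0.16, again without overlap and with a limma adjusted p = 0.902. The polymerase delta subunits were -0.10 ± 0.10 (Pold1), -0.22 ± 0.17 (Pold2) and -0.12 ± 0.09 (Pold3), and their groups overlapped. With 1 array left out the median of these 5 genes ran from -0.19 (without tamoxifen 1) to -0.13 (without tamoxifen 2).

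Averaged per sub-complex, the arrays of polymerase alpha-primase lay between -0.13 and -0.07 in tamoxifen cells and between 0.06 and 0.16 in untreated cells. For polymerases delta and epsilon the ranges were -0.13 to -0.01 in tamoxifen cells and 0.02 to 0.16 in untreated cells. The clamp and its loader ranged from -0.06 to 0.00 in tamoxifen cells and from 0.01 to 0.04 in untreated cells. In these 3 sub-complexes the groups did not overlap, whereas they did in the other 9, such as the MCM ring (-0.16 to 0.05 in tamoxifen cells, -0.03 to 0.26 in untreated cells). These are means per array after quantile normalization. For the clamp and its loader they nearly met (0.0016 on tamoxifen 1, 0.0096 on untreated 2) and included the brighter Pcna probe set described below. The medians per array of the clamp and its loader overlapped (0.05 on tamoxifen 1, -0.06 on untreated 2). Whether sub-complexes differed from each other was not tested.

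For the clamp, the value depended on the probe set. PCNA is the ring that tethers polymerases to DNA, and its brightest probe set measured 9690, 9242 and 10070 in tamoxifen samples 1, 2 and 3, against 6938, 8395 and 9796 in untreated samples 1, 2 and 3. The tamoxifen samples were close together, and untreated 3 lay among them. The fold change was 0.22 ± 0.12 (SE), with a limma adjusted p = 0.999. A second Pcna probe set measured 6703, 6290 and 6184 in tamoxifen samples, against 6499, 6832 and 6367 in untreated samples, -0.05 ± 0.06 (SE). The 2 probe sets thus differed in sign, and the value of 0.22 given for Pcna is that of the brighter one. RefSeq lists pseudogenes of Pcna (Pcna-ps1 and Pcna-ps2), and which transcript each probe set detects is not settled by the sources used here. Subunits of RFC, which opens the clamp, measured -0.21 ± 0.14 (Rfc1), -0.05 ± 0.10 (Rfc2), -0.03 ± 0.10 (Rfc3), -0.13 ± 0.09 (Rfc4) and -0.06 ± 0.09 (Rfc5). Rfc1, the large subunit, was lowest on tamoxifen 1 (699) and highest on untreated 2 (991). The median of the 6 genes, -0.06, became 0.02 without untreated 1 and -0.10 without untreated 2.

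RPA coats single-stranded DNA, and 2 of its 3 subunits were below 0. Rpa2 measured 478, 393 and 409 in tamoxifen samples 1, 2 and 3, against 612, 461 and 406 in untreated samples 1, 2 and 3, -0.21 ± 0.13 (SE). Untreated 3 was level with the tamoxifen samples. Rpa3 had -0.13 ± 0.12 and a second probe set -0.11 ± 0.07, while Rpa1 had 0.01 ± 0.10 and changed sign under 4 of 16 alternatives. Of the enzymes that finish Okazaki fragments, Lig1, the replicative DNA ligase, measured 704, 584 and 595 in tamoxifen samples, against 766, 713 and 681 in untreated samples. Its groups overlapped through tamoxifen 1 in deposited intensity, but not after quantile normalization (-0.03 on tamoxifen 1, 0.05 on untreated 2). The fold change of Lig1, -0.22 ± 0.07 (SE), had the lowest limma adjusted p of the list, 0.733. Fen1, the flap endonuclease, measured -0.05 ± 0.18, the largest SE among the members, and was 0.14 without untreated 1. The median of RPA, -0.13, ran from -0.22 (without untreated 3) to -0.04 (without untreated 1), and that of Fen1 and Lig1, also -0.13, from -0.21 (without tamoxifen 1) to -0.03 (without untreated 1).

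Enzymes of deoxynucleotide supply had 5 of 5 members below 0 and a median of -0.13. Rrm2, the S phase subunit of ribonucleotide reductase, measured 2059, 1812 and 1746 in tamoxifen samples 1, 2 and 3, against 2459, 2151 and 1931 in untreated samples 1, 2 and 3. Tamoxifen 1 exceeded untreated 3 in deposited intensity, but not after quantile normalization (-0.06 on tamoxifen 1, 0.01 on untreated 3), where the groups did not overlap. The fold change was -0.22 ± 0.08 (SE) with a limma adjusted p = 0.893. Dut, which removes dUTP, measured 701, 592 and 583 in tamoxifen samples, against 860, 674 and 657 in untreated samples (-0.23 ± 0.10). For Dut a single tamoxifen sample, sample 1, reached into the untreated range. Rrm1, the large reductase subunit, had -0.13 ± 0.10, Tyms, which makes thymidylate, -0.07 ± 0.08 and Tk1, which salvages thymidine, -0.13 ± 0.13, with -0.06 ± 0.14 for a second Tk1 probe set. The median of this group ran from -0.25 (without untreated 3) to -0.09 (without tamoxifen 3) with 1 array left out.

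Chromatin assembly, histone mRNA and uracil repair factors had 5 of 5 members below 0 and a median of -0.11. Chaf1b, a subunit of the CAF-1 histone chaperone, measured 633, 469 and 490 in tamoxifen samples 1, 2 and 3, against 712, 587 and 529 in untreated samples 1, 2 and 3. Both groups were highest in sample 1 and overlapped, with a fold change of -0.21 ± 0.12 (SE). Its partner Chaf1a had -0.11 ± 0.11. Slbp, which binds the stem-loop of histone mRNAs, had -0.11 ± 0.06, with -0.03 ± 0.07 for its second probe set. Uhrf1, which guides maintenance DNA methylation, had -0.09 ± 0.16 and turned to 0.08 without untreated 1. Ung, which removes uracil from DNA, had -0.15 ± 0.09. The median ran from -0.18 (without untreated 2) to -0.10 (without untreated 1).

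The regulators of S phase entry were close to 0 on balance, with 3 of 4 below 0 and a median of -0.07. Ccne1 measured 453, 407 and 359 in tamoxifen samples 1, 2 and 3, against 494, 447 and 380 in untreated samples 1, 2 and 3 (-0.14 ± 0.09). Ccne2 measured 1165, 1084 and 1019 in tamoxifen samples, against 1110, 1199 and 1000 in untreated samples (-0.03 ± 0.06). Both cyclin E transcripts, which encode partners of CDK2, overlapped between the groups. E2f1 was dim for this list, with 126, 108 and 121 in tamoxifen samples, against 148, 130 and 115 in untreated samples (-0.11 ± 0.12). E2f2 measured 268, 214 and 239 in tamoxifen samples, against 229, 212 and 173 in untreated samples, a log2 fold change of 0.21 ± 0.12 (SE) and an adjusted p from limma of 0.999. E2f2 was thus the only other member above 0.1, with tamoxifen 2 inside the untreated range, and it kept its sign under all 16 alternatives, between 0.11 and 0.30. The median of these 4 genes ran from -0.12 (without untreated 3) to -0.03 (without untreated 1).

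**Figure D4:**
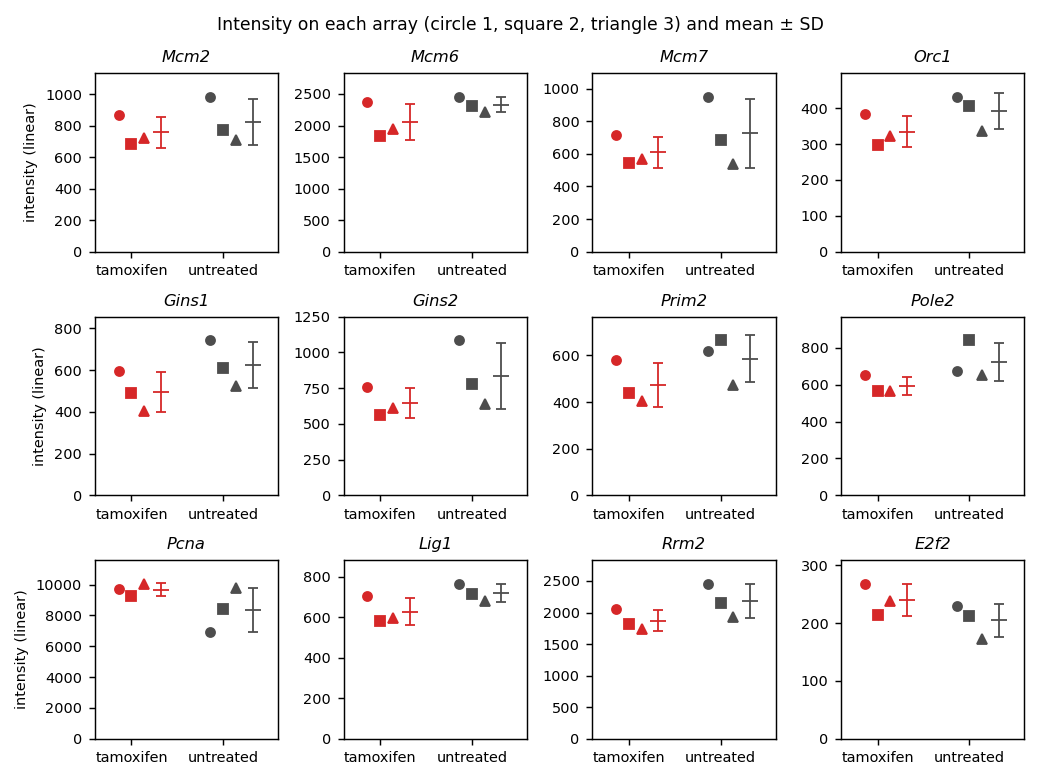
Deposited intensity (linear, vertical axes from 0) of 12 members on each array, tamoxifen in red and untreated in grey, with the mean ± SD of 3 arrays beside the points. Sample 1 (circle) is the highest of its group for most of these genes in both groups, and of the 12 genes Pole2 is the one whose groups do not overlap.

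A further list held replication genes outside the 55. Of 95 listed, 91 were measured, 0 were called by limma, and 63 were below 0 (69.2%, against 55.5% of all genes) with a median of -0.07. At an unadjusted p under 0.05 limma found 9, of which 6 were lower and 3 higher, where 5.11% of all probe sets were found. This count was 3 without tamoxifen 2 and 3 without tamoxifen 3. The lowest was Dck, which phosphorylates deoxycytidine, with 562, 436 and 425 in tamoxifen samples 1, 2 and 3, against 806, 680 and 580 in untreated samples 1, 2 and 3, a log2 fold change of -0.54 ± 0.12 (SE) and an adjusted p from limma of 0.389. Its groups did not overlap. Dctpp1, a pyrophosphatase that clears dCTP, was next at -0.39 ± 0.17. Other genes with lower values were Shmt1, a folate enzyme (-0.34), Timeless, a fork protection factor (-0.25), Ccnd3, a D cyclin (-0.21), Nasp, a histone chaperone (-0.20), and Tfdp1, the dimerisation partner of E2F (-0.14). Higher values were found for Rbl2, which encodes the p130 pocket protein of quiescent cells (0.38 ± 0.07), Hinfp, a regulator of histone H4 genes (0.25 ± 0.09), and Pold4, the small subunit of polymerase delta (0.25 ± 0.09). The 14 measured genes of nucleotide supply outside the 55 had 11 below 0 and a median of -0.16, and the other fork and origin factors 19 of 30 and -0.05. Replication-coupled chromatin factors had 12 of 15 below 0 with a median of -0.07, and genes of S phase entry and E2F control 21 of 32 with a median of -0.04.

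Genes of the next cell cycle phase did not share the sign. Of 15 measured G2 and M phase genes, 6 were below 0, the median was 0.04, and limma called 0 and found 0 at an unadjusted p under 0.05. Their summed intensity was 24760 to 25840 in tamoxifen cells, against 24110 to 26110 in untreated cells. Of 9 measured cell cycle inhibitors 8 were above 0 with a median of 0.10, and limma called 0 and found 1, Rbl2, at an unadjusted p under 0.05. The lists shared genes: Rb1, Rbl1 and Rbl2 were also among the 91 other replication genes, as was Top2a of the G2 and M phase genes. Their sum ran from 4609 to 4779 in tamoxifen cells and from 4102 to 4478 in untreated cells, and its part in the values of the replication genes was not tested.

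**Figure D5:**
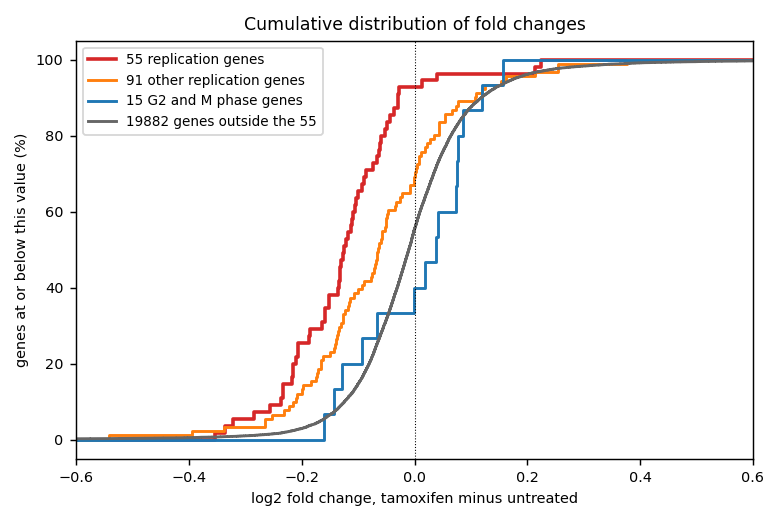
Percentage of genes (vertical axis) at or below each log2 fold change (tamoxifen minus untreated, horizontal axis) for the 55 members, 91 other replication genes, 15 G2 and M phase genes and all remaining genes. The curve of the members lies to the left, with its median at -0.13, against -0.07, 0.04 and -0.01 for the other curves.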

How the data were processed

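Total RNA of 6 samples (3 tamoxifen, 3 untreated, grouped by sample title) was labelled as biotinylated cRNA, per the labels' protocols. The authors deposited a linear intensity for each probe set on each array, which is what the text prints as intensity. Their background correction, summarisation and normalization are not stated in any label or header used, nor is a batch or scan date. For testing, log2(value + 16) was taken and quantile normalised, and all 34760 probe sets were fitted by lmFit and eBayes (limma 3.58.1, R 4.3.3). Two-sided p-values were adjusted by Benjamini-Hochberg, with a threshold of 0.05. The log2(value + 16) scale understates the change of dim genes. The annotation table of the platform gave 1 symbol to 21640 probe sets, several to 1321 and no name here to 11799.

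Members and lists were chosen with earlier results of these data known, so their direction is described by counts and medians, without a test of the list. Named genes followed a written rule: every member is named, and values on every array are given for the member with the largest absolute fold change of each sub-complex, for Mcm2 to Mcm7, Pcna, the cyclin E and E2F genes and for members at an unadjusted p under 0.05. Of other replication genes, those under that p and the 3 with the largest absolute fold change are named. Orc4, Orc5, Pola1, Pola2 and Rfc1 were also given values on single arrays, and Gins1, Cdt1 and Cdc7 group means, chosen after their values were seen. Sequences are from RefSeq (GRCm38.p6). The steps were tested on simulated data. The alternatives were a replicate block, each array left out in turn, cyclic loess, scaling to a common median, no further normalization, a filter on dim probe sets, eBayes run robustly with a trend on intensity, weighted arrays, averaged probe sets and pseudocounts of 1 and 64. Precision is limited by having 3 arrays a group. Figures were drawn with matplotlib 3.10.9.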

Additional observations from a re-analysis of the deposited data

How the results depend on the processing

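No member was called under any of the 16 alternatives (0 of 880 values), and 26 of these 880 values changed sign. Of the 26, 22 came with 1 array left out. The others were Orc5 (0.0054), Rfc3 (0.0042) and Ccne2 (0) with scaling to a common median and Rpa1 (-0.012) with array weights. With 1 array left out the members that changed sign ran from -0.164 to 0.0461 (Mcm5), -0.172 to 0.0648 (Orc4), -0.169 to 0.0351 (Orc5), -0.142 to 0.0087 (Cdc45), -0.0548 to 0.109 (Gins4), -0.0833 to 0.0056 (Prim1), -0.161 to 0.0044 (Pold1), -0.123 to 0.0407 (Rfc2), -0.107 to 0.0478 (Rfc3), -0.105 to 0.0074 (Rfc5), -0.0664 to 0.0828 (Rpa1), -0.161 to 0.139 (Fen1), -0.179 to 0.0771 (Uhrf1) and -0.0541 to 0.01 (Ccne2). The median of the clamp and its loader was -0.0291 with scaling to a common median, and ran from -0.10 to 0.0241 with 1 array left out. The median of the origin recognition complex ran from -0.15 to -0.0562 and that of nucleotide supply from -0.25 to -0.0865 in the same way. Members below 0 numbered 43 to 52 over all alternatives, lowest without untreated 1.

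Probe sets called by limma over the whole array numbered 20, and 0 with the replicate block, 3 with scaling to a common median, 12 with no further normalization, 12 with an intensity trend and robust eBayes, 11 with a pseudocount of 1, 46 with the dim filter, 39 with array weights, 73 with averaged probe sets, and 0 to 6 with 1 array left out. Where the count was 0, the unadjusted p of limma was under 0.05 for 2525 probe sets with the block and for 1360 to 2218 with an array left out. Members at an unadjusted p under 0.05 numbered 6, and 13 with the replicate block, 10 with array weights, 3 with the trend and 3 with a pseudocount of 1. Other replication genes at that p numbered 9, and 18 with the replicate block. Foxo1 kept its sign under all 16 alternatives, with an adjusted p of 0.0936 from limma with the replicate block. Deviations within the groups correlated at 0.256, 0.0547 and 0.302 between samples of the same number. Between samples of different numbers the correlations ran from -0.42 to 0.248. These values do not settle whether the numbers pair the samples. No label says that equal numbers mark a shared culture or batch, so pairing was not assumed in the main fit. The number of arrays limits what small differences can be resolved, and the cause of these shifts was not tested.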
